A study of Homo sapiens with 6 samples.

Results

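The 10 genes described here encode the hypoxia-inducible factors (HIF1A, EPAS1 and their shared partner ARNT), the proteins that control their stability (the prolyl hydroxylases EGLN1 and EGLN3 and the von Hippel-Lindau protein VHL), and 4 target genes outside glycolysis that are often used as hypoxia markers (CA9, CA12, NDRG1 and BNIP3). They were taken by gene name from the deposited expression table, where all 10 were found among 58735 genes. PC9-BrM3 cells, which were derived from the human lung adenocarcinoma line PC9 by repeated injection into mice and recovery from brain metastases, were profiled by RNA-seq to ask how AKR1B10 acts on glycolytic metabolism. AKR1B10 was silenced by shRNA in 3 libraries (BrM3-shAKR1B10), and the other 3 carried a negative control shRNA (BrM3-shNC, with the genotype labelled WT). Both shRNAs were carried by a lentiviral vector, and both groups were labelled as routine culture, so that no library was labelled as grown at lowered oxygen. The knockdown libraries rest on 1 shRNA against AKR1B10, so that an effect of losing AKR1B10 and another effect of this shRNA cannot be told apart.

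HIF1A and EPAS1 encode the oxygen-sensitive alpha subunits HIF-1α and HIF-2α. When oxygen is present, EGLN enzymes hydroxylate prolines of these subunits, VHL binds the hydroxylated form and brings it to a ubiquitin ligase, and the subunit is degraded. When oxygen is low, the alpha subunit accumulates, pairs with ARNT and activates genes that carry the hypoxia response element. This control acts mainly on the protein, which RNA-seq does not measure, while EGLN3, CA9, NDRG1 and BNIP3 are themselves induced by these factors at the RNA level.

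The deposited values were FPKM, a measure scaled to gene length and a library size that allows levels to be compared between genes per length. The library size recovered from the values ran from 16911164 to 18350584. It lay above the reads on genes in all BrM3-shAKR1B10 libraries and below them in all BrM3-shNC libraries. Reads on genes numbered from 16964504 to 18709028 per library, and a gene of 1000 bases with 3 reads would stand at 0.163 to 0.177 FPKM, which covers counting error only. Silencing left AKR1B10 at 108.5 ± 1.52 FPKM, where the control level was 782 ± 14.6 FPKM (SD, n = 3 each). The epithelial markers EPCAM, KRT8, KRT18, KRT19 and CDH1 were each at least 44.8 FPKM in all 6 libraries, whereas the lung markers NKX2-1, NAPSA and SFTPB were each at most 0.677 FPKM. Of 20 markers of fibroblasts, leukocytes, endothelium and brain cells, 3 reached a mean of 1 FPKM (COL1A1, CDH5 and MBP). The fibroblast markers summed to 1.20 to 1.37 FPKM in BrM3-shAKR1B10 and 2.03 to 2.08 FPKM in BrM3-shNC, with COL1A1 called lower (log2 fold change -0.67) and COL1A2, LUM and DCN listed at 0 in all 6 libraries. The brain cell markers summed to 2.52 to 2.70 FPKM in BrM3-shAKR1B10 and 3.44 to 3.59 FPKM in BrM3-shNC, with MBP at a log2 fold change of -0.40 (limma, adjusted p = 0.0022), within the fold change threshold. The leukocyte markers summed to 0.931 to 1.01 FPKM and 1.02 to 1.36 FPKM, with LYZ at 0. The labels do not say whether the 3 libraries of a group came from separate cultures, so that the p-values measure the spread between these libraries, which may be technical.

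The groups were compared by limma, fitted to log2(FPKM + 0.1) of the 13150 genes with a mean of at least 1 FPKM, with Benjamini-Hochberg adjustment, and genes counted as called where the adjusted p was under 0.05 and the log2 fold change beyond 0.5 in either direction. Of the 10 genes, 8 reached that mean and were tested, and CA9 and CA12 did not. EPAS1 and EGLN3 were called higher in BrM3-shAKR1B10, which is 2 of 8, where 5.83% of all tested genes were called higher and 13.3% were called in either direction. None of the 8 was called lower, where 7.45% of all tested genes were. At an unadjusted p under 0.05 in limma 1 was lower (ARNT), where 27.3% of all tested genes were lower and 51.1% passed in either direction, and limma's voom on the recovered reads called 0 lower. At an adjusted p under 0.05 without the fold change threshold, EGLN1 was also higher and ARNT was also lower, which makes 4 of 8, beside 42.5% of all tested genes. The median log2 fold change of the 8 genes was -0.01, and that of all tested genes was -0.01 as well. The plot of the levels of the 10 genes shows 3 with all BrM3-shAKR1B10 libraries higher, 2 with all of them lower and 5 with overlapping groups. Of the 8 tested genes, 4 had groups that did not overlap, which is near the 54.7% of all tested genes.

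**Figure D1:**
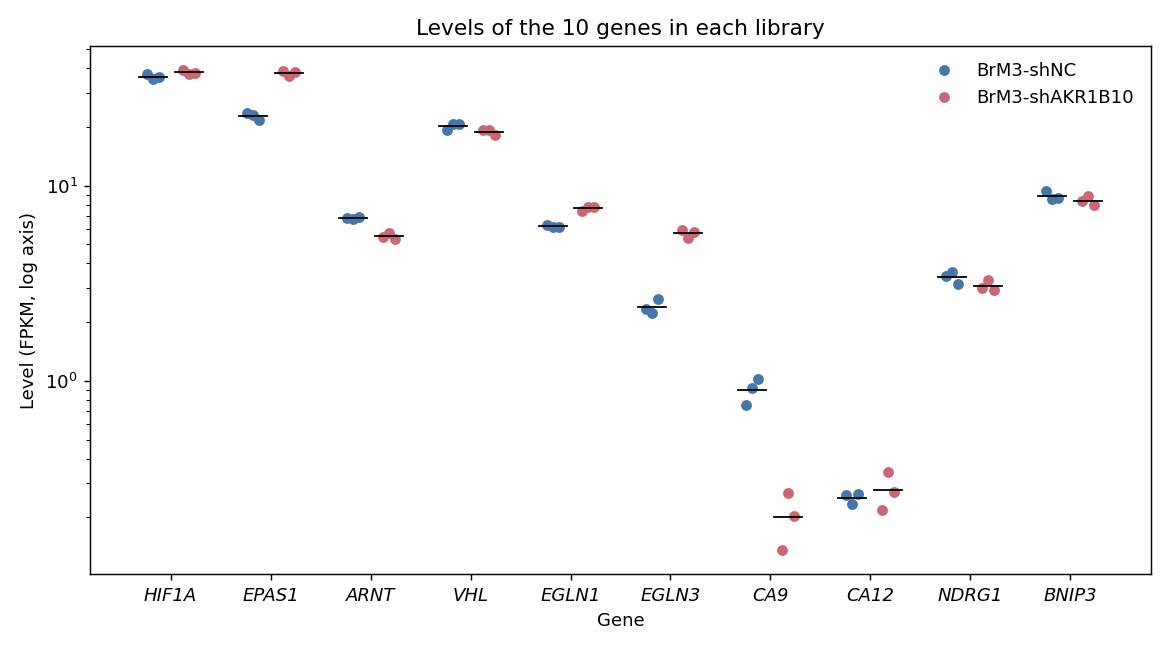
Level of each of the 10 genes in each library (FPKM, log axis), with BrM3-shNC in blue and BrM3-shAKR1B10 in red, 3 libraries per group, and the group mean as a black line. EPAS1, EGLN1 and EGLN3 lie higher in all BrM3-shAKR1B10 libraries, ARNT and CA9 lie lower, and the groups of HIF1A, VHL, CA12, NDRG1 and BNIP3 overlap.

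Among the factors, EPAS1 was called higher and HIF1A was not called. EPAS1 (ENSG00000116016, GRCh38, chr2:46293667-46386703, plus strand) was 38.7, 36.6 and 38.1 FPKM in the BrM3-shAKR1B10 libraries and 23.5, 23.1 and 21.7 FPKM in the BrM3-shNC libraries. All BrM3-shAKR1B10 values lay above all BrM3-shNC values. The mean level was 37.8 ± 1.12 against 22.7 ± 0.955 FPKM (SD, n = 3 each), or 1.66-fold higher, with a log2 fold change of 0.73 (limma, SE 0.0429, 95% confidence interval 0.63 to 0.83, adjusted p = 5.5e-05). EPAS1 ranked 507 of 13150 tested genes from the highest log2 fold change. In bulk RNA, a change in the number of cells that express a gene and a change in the RNA per cell cannot be told apart. EPAS1 is abundant in endothelium, and of the 4 endothelial markers CDH5 was also higher, with 1.85 against 1.14 FPKM. KDR was listed at 0 in all 6 libraries, VWF was at most 0.136 FPKM and PECAM1 was at most 0.293 FPKM in BrM3-shAKR1B10 and at least 0.388 FPKM in BrM3-shNC. The summed level of the 4 markers was between 2.10 and 2.37 FPKM in BrM3-shAKR1B10 and between 1.52 and 1.79 FPKM in BrM3-shNC, and their part in the change of EPAS1 was not tested.

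HIF1A (ENSG00000100644, chr14:61695513-61748259, plus strand) was 39.2, 37.3 and 37.7 FPKM in BrM3-shAKR1B10 and 37.3, 35.1 and 36.0 FPKM in BrM3-shNC. The lowest silenced library lay below the highest control library, so that the groups overlapped. The log2 fold change was 0.07 (limma, 95% confidence interval -0.01 to 0.16, adjusted p = 0.150), an interval that leaves out a change of the size found for EPAS1. With TPM scaling, quantile scaling and voom on the recovered reads, the adjusted p from limma was 0.0379, 0.0233 and 0.0134. The log2 fold changes there were 0.11, 0.15 and 0.12, within the fold change threshold. Voom without the filter also gave an adjusted p under 0.05, and the remaining alternatives did not. HIF1A-AS1, which shares 117 exon bases with HIF1A on the other strand, and HIF1A-AS2 held at most 7 reads per library, against at least 3060 reads on HIF1A.

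The balance between the RNAs of both alpha subunits differed between the groups. The ratio of EPAS1 to HIF1A, in FPKM, was 0.988, 0.981 and 1.01 in BrM3-shAKR1B10 and 0.629, 0.657 and 0.601 in BrM3-shNC. The ratio was 1.58-fold higher in BrM3-shAKR1B10, a difference of 0.66 on the log2 scale (p = 0.10 by exact permutation, two-sided, which no design of 3 against 3 can go below). The ranges of EPAS1 and HIF1A overlapped in BrM3-shAKR1B10 and lay apart in BrM3-shNC.

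ARNT, the partner that both alpha subunits need to bind DNA, went the other way. ARNT (ENSG00000143437, chr1:150809705-150876768, minus strand) was 5.49, 5.71 and 5.32 FPKM in BrM3-shAKR1B10 and 6.80, 6.72 and 6.95 FPKM in BrM3-shNC. Each silenced library lay below each control library. The level in BrM3-shAKR1B10 was 80.7% of that in BrM3-shNC, with a log2 fold change of -0.30 (limma, SE 0.0448, adjusted p = 0.0022), which passed the threshold on p and not that on the fold change.

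Among the regulators of stability, EGLN3 showed the largest log2 fold change of the 8 tested genes. EGLN3 (ENSG00000129521, chr14:33924231-34462774, minus strand), which encodes the prolyl hydroxylase PHD3, was 5.90, 5.40 and 5.79 FPKM in BrM3-shAKR1B10 and 2.33, 2.23 and 2.63 FPKM in BrM3-shNC. The lowest silenced library held 718 reads and the highest control library 353 reads. The mean level was 5.70 ± 0.260 against 2.40 ± 0.205 FPKM (SD, n = 3 each), or 2.38-fold higher, with a log2 fold change of 1.22 (limma, SE 0.0763, 95% confidence interval 1.03 to 1.40, adjusted p = 6.9e-05). It ranked 158 of 13150 tested genes. The annotated span of EGLN3 holds SPTSSA and EGLN3-AS1, neither of which shares exon bases with it. SPTSSA, on the same strand, held between 697 and 747 reads in BrM3-shAKR1B10 and between 1065 and 1104 reads in BrM3-shNC, the opposite direction.

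EGLN1 (ENSG00000135766, chr1:231363751-231425044, minus strand) encodes PHD2, the main hydroxylase of HIF-1α in most cells. It was 7.45, 7.74 and 7.75 FPKM in BrM3-shAKR1B10 and 6.30, 6.18 and 6.15 FPKM in BrM3-shNC. The groups did not overlap, and the difference was smaller than for EGLN3, with a log2 fold change of 0.30 (limma, SE 0.0394, adjusted p = 0.0015) that stayed within the fold change threshold. The ratio of EGLN3 to EGLN1 was between 0.698 and 0.792 in BrM3-shAKR1B10 and between 0.362 and 0.427 in BrM3-shNC, or 1.93-fold higher (exact two-sided permutation test, p = 0.10). In FPKM, which divides by all annotated exon bases of a gene, EGLN1 thus remained above EGLN3 in every library. The isoforms expressed were not examined. VHL (ENSG00000134086, chr3:10141008-10152220, plus strand) was 19.2, 19.4 and 18.2 FPKM in BrM3-shAKR1B10 and 19.4, 20.7 and 20.6 FPKM in BrM3-shNC. These groups overlapped, and the log2 fold change was -0.10 (limma, 95% confidence interval -0.20 to 0.01, adjusted p = 0.121).

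Of the 4 marker targets, NDRG1 and BNIP3 were tested and did not pass, and CA9 and CA12 were below the filter. CA9 (ENSG00000107159, chr9:35673856-35681159, plus strand), a membrane carbonic anhydrase that is a standard marker of HIF-1 activity, was low in all libraries and lower after silencing. It was 0.136, 0.265 and 0.203 FPKM in BrM3-shAKR1B10, which came from 4, 8 and 6 reads, and 0.751, 0.921 and 1.02 FPKM in BrM3-shNC, which came from 23, 26 and 31 reads. The highest silenced library lay below the lowest control library, and the mean level was 4.45-fold higher in BrM3-shNC (exact two-sided permutation test on log2 values, p = 0.10, the smallest that 3 against 3 allow). CA9 was left out of the test by its mean of 0.549 FPKM. Fitted without that filter, it was called lower, with a log2 fold change of -1.74 (limma, SE 0.268, adjusted p = 0.0078), where 3.44% of the 31583 genes in that fit were called lower and 2.98% higher. With limma's voom on the recovered reads and no filter, an alternative chosen after seeing the data, the log2 fold change was -2.05 (adjusted p = 0.0011). Of the 1670 exon bases of CA9, 643 (38.5%) are shared with ARHGEF39 on the other strand. ARHGEF39 was also lower, with 129, 153 and 180 reads against 323, 289 and 338, or 1.33 ± 0.220 against 2.73 ± 0.112 FPKM (SD, n = 3 each), and was called lower by limma (adjusted p = 0.0013). Whether the counting used the strand is not given in the sources used here, so that reads on the shared bases cannot be assigned to either gene, and the part of ARHGEF39 in the change of CA9 was not tested.

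CA12 (ENSG00000074410, chr15:63321378-63382161, minus strand), another transmembrane carbonic anhydrase with an outward-facing active site, was 0.217, 0.341 and 0.270 FPKM in BrM3-shAKR1B10 and 0.261, 0.234 and 0.262 FPKM in BrM3-shNC. The silenced libraries enclosed the control libraries, and no difference was detectable at between 28 and 45 reads per library (exact two-sided permutation test, p = 0.70; without the filter, log2 fold change 0.08, 95% confidence interval -0.56 to 0.72). The ratio of CA12 to CA9 was between 1.28 and 1.60 in BrM3-shAKR1B10 and between 0.255 and 0.347 in BrM3-shNC (exact two-sided permutation test, p = 0.10).

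NDRG1 (ENSG00000104419), a stress-responsive gene that is strongly induced by hypoxia in many cell types, was 3.01, 3.28 and 2.92 FPKM in BrM3-shAKR1B10 and 3.46, 3.61 and 3.13 FPKM in BrM3-shNC. The second silenced library lay above the third control library. The log2 fold change was -0.14 (limma, 95% confidence interval -0.33 to 0.04, adjusted p = 0.188). BNIP3 (ENSG00000176171, chr10:131966455-131982013, minus strand), which encodes a mitochondrial protein that promotes mitophagy, was 8.30, 8.82 and 7.94 FPKM in BrM3-shAKR1B10 and 9.41, 8.57 and 8.70 FPKM in BrM3-shNC. The groups overlapped, with a log2 fold change of -0.09 (limma, 95% confidence interval -0.23 to 0.05, adjusted p = 0.253). The annotation holds many processed pseudogenes of BNIP3, among which BNIP3P11 held the most reads, at most 24 per library, against at least 750 reads on BNIP3. The intervals of NDRG1 and BNIP3 both lay below the fold change found for EGLN3.

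**Figure D2:**
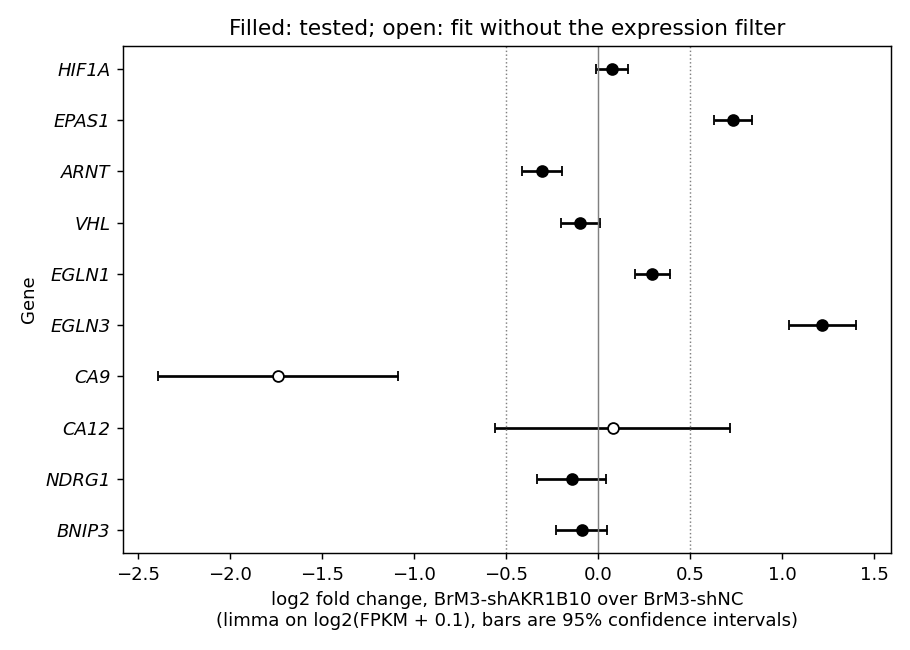
Log2 fold change of each gene in BrM3-shAKR1B10 over BrM3-shNC (limma on log2(FPKM + 0.1), 3 libraries per group) with 95% confidence intervals as bars, the fold change threshold of 0.5 as dotted lines, and open circles for CA9 and CA12, which were fitted without the expression filter. EGLN3 (1.22) and EPAS1 (0.73) lie above the threshold and CA9 (-1.74) below it.

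Ordered by level in BrM3-shNC, the genes ran from HIF1A, EPAS1, VHL, BNIP3, ARNT, EGLN1, NDRG1 and EGLN3 to CA9 and CA12, and no pair of neighbours in this order had overlapping values. In BrM3-shAKR1B10 the order was HIF1A, EPAS1, VHL, BNIP3, EGLN1, EGLN3, ARNT, NDRG1, CA12 and CA9. There, HIF1A and EPAS1, EGLN3 and ARNT, and CA12 and CA9 could not be separated beyond their spread.

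Hypoxia-inducible factors bind a short core in DNA, which reads ACGTG or GCGTG. To show where these letters stand, the windows from 250 bases before to 50 bases after the RefSeq transcription start (GRCh38.p14) were searched on both strands. Windows were found for 8 of the 10 genes, and those of the 5 genes whose groups did not overlap are printed. In all 35116 windows of that length, 21.4% hold ACGTG, 36.5% hold GCGTG and 48.4% hold either. The windows of EGLN3 (chr14:33951025-33951324, minus strand), EPAS1 (chr2:46297157-46297456, plus strand), EGLN1 (chr1:231422238-231422537, minus strand), ARNT (chr1:150876550-150876849, minus strand) and CA9 (chr9:35673678-35673977, plus strand) are given 5′ to 3′ on the strand of the gene, with the motifs in capitals.
EGLN3: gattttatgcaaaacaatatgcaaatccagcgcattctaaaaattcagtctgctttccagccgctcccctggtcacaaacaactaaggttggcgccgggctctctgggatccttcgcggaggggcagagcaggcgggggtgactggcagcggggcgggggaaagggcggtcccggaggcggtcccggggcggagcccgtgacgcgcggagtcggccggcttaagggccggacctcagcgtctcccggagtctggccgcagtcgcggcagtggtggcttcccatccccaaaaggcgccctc
EPAS1: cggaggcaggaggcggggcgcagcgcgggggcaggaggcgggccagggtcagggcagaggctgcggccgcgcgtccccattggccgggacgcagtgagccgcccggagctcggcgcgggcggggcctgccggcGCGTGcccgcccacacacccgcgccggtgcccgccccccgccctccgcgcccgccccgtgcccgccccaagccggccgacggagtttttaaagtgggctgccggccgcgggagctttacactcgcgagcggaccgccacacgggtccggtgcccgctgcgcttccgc
EGLN1: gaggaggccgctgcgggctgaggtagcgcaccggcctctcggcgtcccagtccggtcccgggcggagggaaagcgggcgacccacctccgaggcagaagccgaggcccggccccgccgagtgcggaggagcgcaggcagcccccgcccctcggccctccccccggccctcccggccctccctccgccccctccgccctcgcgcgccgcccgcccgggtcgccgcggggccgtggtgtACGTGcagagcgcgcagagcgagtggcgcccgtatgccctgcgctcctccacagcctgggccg
ARNT: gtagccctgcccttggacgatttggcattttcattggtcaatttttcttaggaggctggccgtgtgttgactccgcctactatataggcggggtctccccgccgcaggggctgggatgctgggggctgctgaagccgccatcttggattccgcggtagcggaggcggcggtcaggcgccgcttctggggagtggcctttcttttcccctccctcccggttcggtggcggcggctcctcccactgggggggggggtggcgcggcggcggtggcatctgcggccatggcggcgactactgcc
CA9: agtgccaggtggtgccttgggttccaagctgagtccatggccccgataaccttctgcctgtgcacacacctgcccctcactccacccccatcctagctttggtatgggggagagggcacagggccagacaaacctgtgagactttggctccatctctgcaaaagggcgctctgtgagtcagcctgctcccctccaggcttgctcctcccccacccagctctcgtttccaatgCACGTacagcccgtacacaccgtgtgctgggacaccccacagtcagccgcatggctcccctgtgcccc
The CA9 window holds ACGTG once, on the reverse strand and written as CACGT, with its first base at position -18 from the start. The EGLN1 window holds ACGTG on the forward strand at position -13. The EPAS1 window holds GCGTG at position -117, and the EGLN3 and ARNT windows hold neither in these bases. BNIP3, whose groups overlapped, holds ACGTG at the palindrome CACGTG, at positions -134 and -133 on the reverse and forward strand, and GCGTG 4 times. CA12 holds GCGTG at positions -234 and 40, both on the reverse strand, and the first of the 2 HIF1A windows holds it at position -204, while the second holds neither. A match describes the letters of the window and not a bound site.

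The other genes of the pathway were described from lists written from general knowledge, with earlier results of these data known. The study had already reported LDHA, which is on the glycolytic list, as lower in these same libraries. Of 20 genes of the HIF machinery, 18 were tested, of which 2 were called higher and 1 lower, with a median log2 fold change of -0.03, beside 5.83% of all tested genes called higher and 7.45% called lower. Both higher genes encode proteins that bind the CBP and p300 coactivators in competition with HIF alpha subunits. CITED2 was 24.6, 24.7 and 26.3 FPKM in BrM3-shAKR1B10 and 11.8, 12.0 and 12.9 FPKM in BrM3-shNC, with a log2 fold change of 1.04 (limma, SE 0.0485, adjusted p = 2.6e-05). Its groups did not overlap. CITED4 was 11.4 ± 1.33 against 6.69 ± 0.268 FPKM (SD, n = 3 each), with a log2 fold change of 0.76 (limma, adjusted p = 7.6e-04). HSP90AA1, a chaperone that stabilizes HIF-1α among many clients, was called lower, with 477, 510.1 and 482 FPKM in BrM3-shAKR1B10 and 799, 729 and 735 FPKM in BrM3-shNC and a log2 fold change of -0.62 (limma, adjusted p = 1.7e-04). The coactivators themselves, EP300 (-0.07) and CREBBP (-0.12), and the subunits of the VHL ligase CUL2 (-0.11), ELOB (0.04), ELOC (-0.13) and RBX1 (-0.17) had log2 fold changes that did not pass the test. HIF1AN, the asparagine hydroxylase that blocks coactivator binding, had a log2 fold change of 0.18 (limma, adjusted p = 0.0198), within the fold change threshold, and the third prolyl hydroxylase gene EGLN2 had -0.07 (adjusted p = 0.584).

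Of 40 HIF target genes outside glycolysis, 28 were tested, of which 3 were called higher and 2 lower, with a median log2 fold change of 0.00, beside the same 5.83% and 7.45%. The higher genes were HMOX1, TGFA and HILPDA. HMOX1, the heme oxygenase that is also a target of NRF2, was 12.4, 10.7 and 11.4 FPKM in BrM3-shAKR1B10 and 4.28, 4.40 and 5.42 FPKM in BrM3-shNC (log2 fold change 1.28, standard error 0.101, adjusted p = 1.7e-04 from limma). TGFA, an EGFR ligand that HIF-2α is known to induce in kidney cancer, was 6.70 ± 0.313 against 3.80 ± 0.164 FPKM (SD, n = 3 each; log2 fold change 0.80, adjusted p = 1.2e-04 from limma). HILPDA, a lipid droplet protein, had a log2 fold change of 0.51 (limma, adjusted p = 1.6e-04), close to the threshold, and was not called without BrM3-shAKR1B10 replicate 3 (0.497) or BrM3-shNC replicate 2 (0.496), nor with a pseudocount of 1 (0.467). The lower genes were PLOD2, a collagen lysyl hydroxylase, with 7.72 ± 0.0623 against 12.8 ± 0.623 FPKM (log2 fold change -0.72), and AK4, a mitochondrial adenylate kinase, with 6.56 ± 0.514 against 10.7 ± 0.139 FPKM (log2 fold change -0.70, SD, n = 3 each). PLOD2, which acts on collagen, was lower beside the fibroblast markers given above, whose part in it was not tested. VEGFA, the best-known angiogenic target, was 6.70 ± 0.176 against 6.38 ± 0.142 FPKM (SD, n = 3 each), with a log2 fold change of 0.07 (limma, 95% confidence interval -0.03 to 0.17, adjusted p = 0.241). At the threshold on p alone, 11 of the 28 were higher and 8 lower, beside 19.4% and 23.1% of all tested genes.

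Of 22 glycolytic HIF targets, 21 were tested, of which 3 were called lower (LDHA, PFKP and PGAM1) and none higher, beside 7.45% of all tested genes called lower and 5.83% called higher. At an unadjusted p under 0.05 the count of higher genes was 3 of 21, beside 23.8% of all tested genes, and that of lower genes was 9 of 21, beside 27.3%. At the adjusted p alone, 8 of the 21 were lower, beside 23.1% of all tested genes, and 3 higher, beside 19.4%. For higher genes, limma's voom on the recovered reads also called none. Over the list the median was -0.13 on the log2 scale, with 15 of 21 genes below 0, while over all tested genes 6784 of 13150 were below 0. LDHA, which converts pyruvate to lactate, was 133.7, 138.0 and 134.1 FPKM in BrM3-shAKR1B10 and 241.6, 229.9 and 229.2 FPKM in BrM3-shNC, with a log2 fold change of -0.79 (limma, adjusted p = 2.1e-05). PFKP, a phosphofructokinase, had a log2 fold change of -0.67 and PGAM1, a phosphoglycerate mutase, had -0.60. The glucose transporter SLC2A1 (0.15) and hexokinase HK2 (0.35), which are also induced by HIF-1, were higher at the threshold on p (adjusted p = 0.0062 and 0.0031 from limma) and within that on the fold change. The plot of the 3 lists shows called genes on both sides of 0 in the machinery and in the targets outside glycolysis, and on the lower side in the glycolytic targets.

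**Figure D3:**
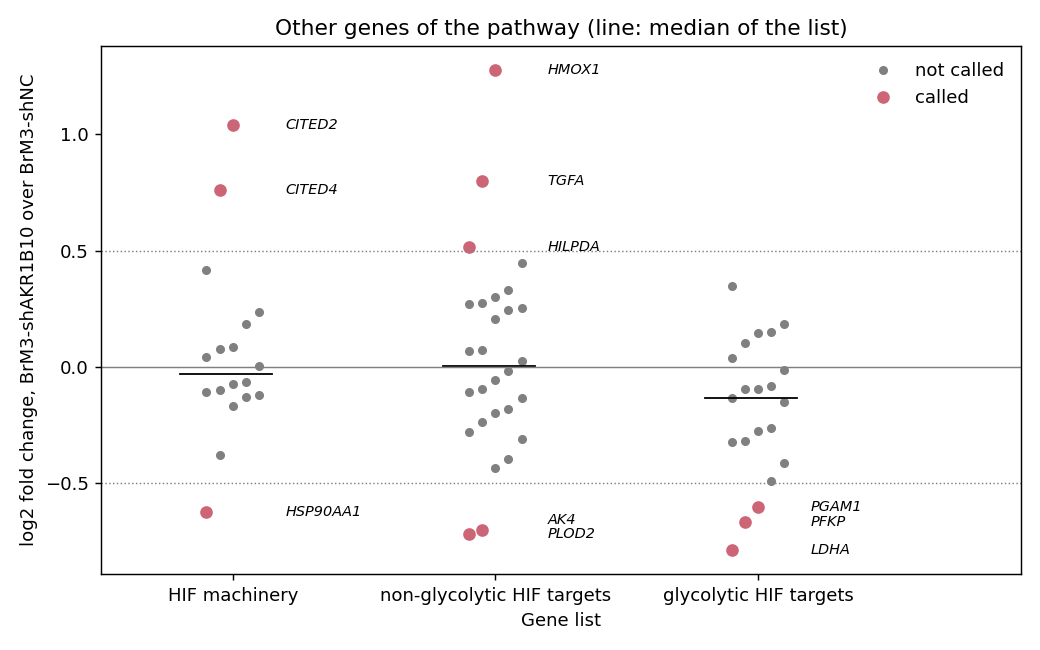
Log2 fold change in BrM3-shAKR1B10 over BrM3-shNC (limma on log2(FPKM + 0.1), 3 libraries per group) for each tested gene of the 3 lists, with called genes in red and named, other genes in grey, the median of each list as a black line and the fold change threshold of 0.5 as dotted lines. CITED2 (1.04) and HMOX1 (1.28) lie highest in their lists and LDHA (-0.79) lowest in its list.

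The genes whose pattern over the 6 libraries was most like that of each factor were found by the root mean square difference of centred log2(FPKM + 0.1) values. TMEM245 (0.0309), SC5D (0.0424) and ERCC6 (0.0425) were nearest to EPAS1. Near to EGLN3 were IL18 (0.0600) and HMOX1 (0.0644). ORAI2 (0.0128), ERCC3 (0.0129) and PRR14L (0.0130) were nearest to HIF1A. The measure describes likeness over 6 libraries in 2 groups and carries no test.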

How the data were processed

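RNA-seq libraries of PC9-BrM3 cells were grouped by the sample labels into BrM3-shAKR1B10 and BrM3-shNC (n = 3 each). According to the supplementary methods, the authors purified mRNA with poly-T beads, sequenced paired-end reads, aligned them with HISAT2 2.0.5, counted reads per gene with featureCounts 1.5.0-p3 and computed FPKM from the counts and the gene length. The deposited table holds FPKM for 58735 genes with the gene length, an annotation value. Genome build and strand setting are not given in the sources used here. All 58735 genes match GENCODE 29 (GRCh38) in identifier, position and strand. Reads were recovered as whole multiples of 1 step per library, for 100% of values within 0.02 reads. Tests used limma 3.58.1 in R 4.3.3 (eBayes with a trend, pseudocount 0.1, mean FPKM of at least 1) and exact permutation in Python 3.11.15. The limma fit, and no other step, was tested on simulated data, with changes well beyond the fold change threshold. Fold changes on log2(FPKM + 0.1) understate the change of low genes. Alternatives were other pseudocounts, filters, scalings and thresholds, eBayes without a trend, voom on recovered reads, a replicate block, and each library left out.

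The genes and lists were chosen with earlier results of these data known. Named were the 10 genes, AKR1B10, the called genes of the 3 pathway lists (at most 5 per direction), VEGFA, LDHA, called genes of the same families, overlapping genes and pseudogenes, and the 3 nearest genes by pattern, of which 1 is not reported here. Other named genes, ARNT2 among them, and the genes of the lists named without a call, were chosen after their values were seen.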

Additional observations from a re-analysis of the deposited data

How the results depend on the processing

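EPAS1, EGLN3 and CITED2 were higher and LDHA was lower in every alternative fit that tested them, with log2 fold changes between 0.70 and 0.78 for EPAS1 and between 0.98 and 1.30 for EGLN3. Of 722 alternative values, 671 were classed as unchanged. A tested gene was classed by its call, a count by a set fold, and other values by the replicate spread. Some settings cannot change a ratio or a median, so that part of the 671 could not differ. The number of the 10 genes called higher was 1 with a mean of at least 5 FPKM, where EGLN3 was not tested, and 1 with a log2 fold change threshold of 1, which EPAS1 did not reach. The number called lower was 1 without the filter and with voom without the filter (CA9), and 1 with adjusted p alone (ARNT). For the HIF machinery, adjusted p alone gave 5 higher and 2 lower genes, the threshold of 1 gave 1 and 0, and both fits without the filter gave 2 lower genes. For the targets outside glycolysis, adjusted p alone gave 11 higher and 8 lower genes and the threshold of 1 gave 1 and 0. For the glycolytic targets these were 3 higher and 8 lower, and 0 lower at the threshold of 1. Over all genes, 497 were higher with a pseudocount of 1, 290 were higher and 532 lower with a mean of at least 5 FPKM, 2548 higher and 3044 lower with adjusted p alone, 168 higher and 205 lower at the threshold of 1, and 1559 higher (57.5% of calls, against 43.9% as reported) with voom without the filter. TPM scaling gave 902 higher and 873 lower genes. Within the thresholds and genes as reported, the number of targets outside glycolysis called higher was 2 with a pseudocount of 1, 4 with quantile scaling and 2 to 3 with each library left out, and 3 to 4 glycolytic targets were called lower with each library left out. The cause was not tested.

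The median log2 fold change of the tested members of the 10 genes lay close to 0 and turned to 0.050 with quantile scaling, 0.029 with TPM scaling, 0.040 with voom, 0.039 with voom without the filter, 0.013 without BrM3-shAKR1B10 replicate 3 and 0.024 without BrM3-shNC replicate 1. That of the HIF machinery turned to 0.045 with a mean of at least 5 FPKM, 0.0057 with TPM scaling and 0.017 with voom with and without the filter. That of the targets outside glycolysis turned to -0.021 without the filter and reached -0.028 with 1 library left out, and the log2 fold change of CA12 turned to -0.048 with quantile scaling and, with 1 library left out, ranged from -0.042 (without BrM3-shAKR1B10 replicate 2) to 0.20. The cause was not tested. With a pseudocount of 1, the log2 difference of the ratio of EGLN3 to EGLN1 was 0.72, that of CA12 to CA9 was 0.68, and the log2 fold change of CA9 was -0.66 against -2.14 with a pseudocount of 0.01, since a pseudocount compresses low values. The adjusted p of HIF1A was between 0.0134 and 0.358 over the alternatives, always within the fold change threshold. With each library left out in turn, 2 of the 10 genes were called higher and 0 lower in every fit.

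Libraries that carry the same replicate number did not deviate together (correlations from -0.0155 to 0.0039), and the numbers were not treated as a pairing. With the replicate block, 967 genes were lower and 719 higher, and 2 of the 10 genes were again higher (EPAS1, adjusted p = 0.0014 and EGLN3, adjusted p = 0.0012 from limma) and 0 lower. Depth limits CA9 and CA12, at most 45 reads per library.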

Other observations

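ARNT2, a paralog of ARNT that is best known from the nervous system, was too low to be tested, with 0.161, 0.172 and 0.197 FPKM in BrM3-shAKR1B10 and 0.507, 0.634 and 0.439 FPKM in BrM3-shNC. Its groups did not overlap, in the direction seen for ARNT, and without the filter it was called lower (limma, adjusted p = 0.0283). The summed brain cell markers were lower in the same libraries, and their part in this was not tested. HIF3A was at most 0.0521 FPKM in all 6 libraries.

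Relatives of the target genes were also read. Of the 13 other carbonic anhydrases, 1 reached a mean of 1 FPKM, CA11, with a log2 fold change of 0.36 that did not pass (limma, adjusted p = 0.141), and 6 were listed at 0 in all libraries. Of 11 NDRG paralogs and BH3-only genes, 10 were tested and none was called by limma, with 5 at an unadjusted p under 0.05, beside 51.1% of all tested genes, and 0 called by voom. NDRG3 had a log2 fold change of -0.29 (limma, adjusted p = 0.0012), within the fold change threshold, and BNIP3L, the paralog of BNIP3, had 0.25 (limma, adjusted p = 0.0101), where BNIP3 had -0.09.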
